A study of Homo sapiens with 16 samples.

Results

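Human neural cultures kept in Thiamet-G (TMG) were compared between day 12 (D12) and day 30 (D30) of differentiation. The comparison rests on 4 of the 16 RNA-seq libraries of the series: TMG replicates 1 and 2 on D12 and TMG replicates 1 and 2 on D30, chosen by stage and treatment alone. All libraries come from H9, an established human embryonic stem cell line, driven towards neural cells by dual SMAD inhibition, and the whole series holds 4 stages with 2 libraries for each stage and treatment. TMG blocks O-GlcNAcase, the enzyme that takes the O-GlcNAc sugar off proteins, and was present at 40 µM in the treated cultures. The 4 groups used were H9 cells in TMG on D12, H9 cells in TMG on D30, H9 cells in DMSO (control) on D12 and H9 cells in DMSO on D30. Only 1 cell line was studied, so the values describe H9 cultures and no other line. Total RNA was sequenced after removal of ribosomal RNA, and levels are given as CPM, a gene's counts scaled to a common library size and composition.

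O-GlcNAc is a single sugar that OGT attaches to serine and threonine residues of nuclear and cytoplasmic proteins and that O-GlcNAcase (OGA) removes. When OGA is inhibited the mark accumulates on many proteins, transcription factors and chromatin regulators among them. During neural differentiation a stem cell culture first turns into a neuroepithelium, whose progenitors later leave the cell cycle and yield neurons that grow axons and assemble synapses.

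The total counts were 17797538 and 15090777 in the D12 TMG libraries and 10334908 and 11058603 in the D30 TMG libraries. The control libraries held 17609585 and 17187551 counts on D12 and 10843196 and 19836878 on D30. D30 TMG replicate 2 stood apart from the other libraries. Across genes, which are not independent replicates, its log2 levels correlated with those of D30 TMG replicate 1 at r = 0.943, whereas the pairs of the other groups reached 0.972 (D12 TMG), 0.974 (D12 control) and 0.972 (D30 control). With each of the D12 libraries and the D30 control libraries its r lay between 0.892 and 0.927. The D30 TMG libraries were over 1.5-fold apart in 39.4% of the genes tested, against 25.4% in the D12 TMG libraries, 24.3% in the D12 control libraries and 24.9% in the D30 control libraries. Each group has 2 biological replicates, so a spread within a group rests on a single difference.

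The treatment tags of 8 of the 16 samples conflict with their titles: for control replicate 2 and TMG replicate 1 of every stage the tag names the other treatment. The groups here follow the titles and the column names. Across genes, D30 TMG replicate 1 correlated with the D30 control libraries at r = 0.957 and 0.963, against 0.943 with D30 TMG replicate 2. On D12, TMG replicate 1 correlated with the control libraries at 0.973 and 0.973, and TMG replicate 2 at 0.957 and 0.976. The D12 pairs within a treatment reached 0.972 (TMG) and 0.974 (control). Whether the tags or the titles are right was not tested. Without both libraries of TMG replicate 1, whose tags conflict, 782 genes were higher and 269 lower on D30. Without both libraries of TMG replicate 2, whose tags match the titles, the counts were 254 and 140. Each of these values was chosen as an alternative after seeing the data, and each leaves 1 TMG library per stage, whose spread is taken to be that of the other groups.

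The first question was how many genes changed over the interval. Of 22793 genes tested, edgeR with Benjamini-Hochberg adjustment at a false discovery rate of 5% called 663 higher on D30 in TMG (2.91%) and 245 lower (1.07%). The median log2 change of all genes tested was -0.02. In all 908 called genes both D30 libraries lay outside the range of both D12 libraries, as they did in 11206 of all genes tested (49.2%), called or not. The counts rest heavily on single libraries. When 1 library is left out, its group holds a single library, whose spread is taken from the other groups. The edgeR estimate of relative spread between replicates was 0.371 in D30 TMG, against 0.248 in D12 TMG, 0.236 in D12 control and 0.222 in D30 control. Calls made without D30 TMG replicate 1 rest on replicate 2 alone for D30 and on that narrower spread. Without D12 TMG replicate 1 the test called 46 genes higher and 34 lower, and without D12 TMG replicate 2 it called 23 and 24. The counts were 1027 higher and 347 lower without D30 TMG replicate 1, the library nearer to the rest, and 431 and 106 without D30 TMG replicate 2. Leaving out a control library, which enters this contrast through the spread, gave 438 and 131 (D12 replicate 1), 426 and 128 (D12 replicate 2), 295 and 76 (D30 replicate 1) and 289 and 74 (D30 replicate 2). A fit of the 4 TMG libraries alone called 2 genes higher and 0 lower, and DESeq2 on the 8 libraries called 1451 and 618 of the 22793 genes. The DESeq2 counts given for lists below belong beside these DESeq2 totals, and not beside the edgeR shares. For list counts at unadjusted p under 0.05 no share of all genes is given, so they do not show whether a list stands out.

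The next question was which changes both day 30 TMG cultures shared. A called gene was counted as steady when every D30 TMG library was at least 2-fold from every D12 TMG library and the 2 D30 TMG libraries lay within 1.5-fold of each other. By this rule 324 genes were steady and higher (1.42% of genes tested, 48.9% of those called higher) and 110 were steady and lower (0.483% of genes tested, 44.9% of those called lower). Since the same levels enter the test and the rule, these counts are a description. Their median log2 changes were 2.22 and -2.23. Among the genes called higher, 287 had D30 libraries more than 1.5-fold apart, and replicate 2 was the higher library in 198 of them. Of the genes called lower, 94 had D30 libraries that far apart, and replicate 2 was the lower library in 66. Taking the libraries of the same number as they stand, with no claim that they are paired, the D30 minus D12 changes of replicate 1 and replicate 2 correlated across all genes at r = 0.599. Of the steady genes, 33 higher and 14 lower were still called without D12 TMG replicate 1, 18 and 13 without D12 TMG replicate 2, 276 and 60 without D30 TMG replicate 1, and 188 and 27 without D30 TMG replicate 2.

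**Figure D1:**
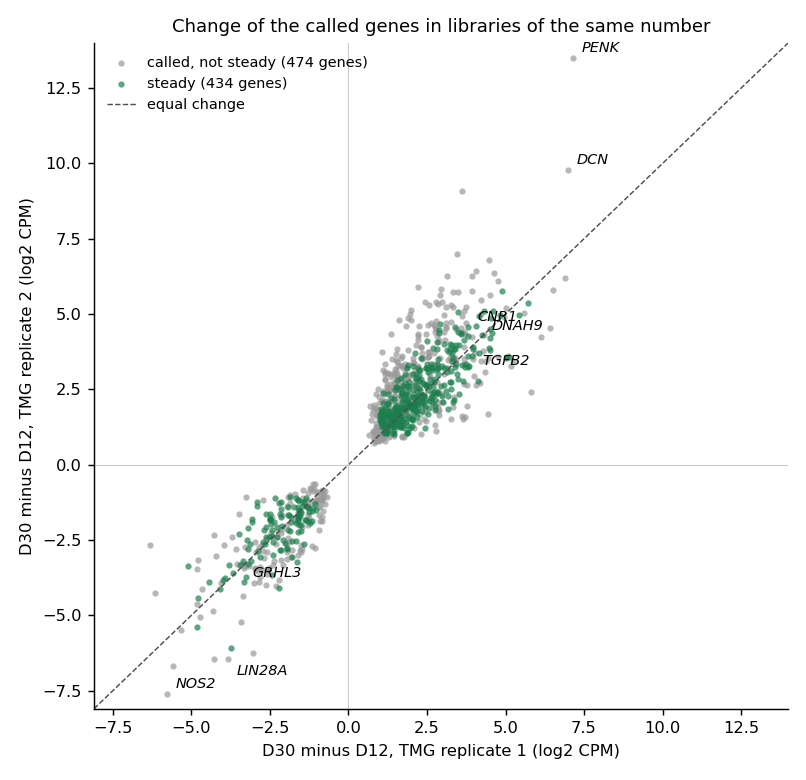
Each point is 1 of the 908 called genes, with the D30 minus D12 change in log2 CPM between the libraries of replicate 1 on the x axis and of replicate 2 on the y axis; green marks the 434 steady genes. The rule for steady genes limits the D30 libraries only, so some steady genes lie off the line of equal change, such as BARHL1 (-2.92 and -1.24). PENK (changes of 7.14 and 13.51) and DCN (6.99 and 9.79) lie far above it.

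Matrix and receptor genes are found among the steady genes with the highest levels. SPARC, a matricellular glycoprotein (ENSG00000113140, GRCh37 chromosome 5, 151040657 to 151066536, minus strand), stood at 494 and 547 CPM on D12 and 2068 and 2603 CPM on D30. Its log2 fold change was 2.17 ± 0.34 (approximate SE from the test on 8 libraries, 2 a group, edgeR, Benjamini-Hochberg adjusted p = 0.0189). FBN1, which encodes the microfibril protein fibrillin-1, had 197 and 266 CPM on D12 and 637 and 812 CPM on D30 (1.65 ± 0.27, adjusted p = 0.0222, edgeR with Benjamini-Hochberg). PDGFRB, a receptor for platelet-derived growth factor found on pericytes and mesenchyme, had 84.2 and 70.7 CPM on D12 and 185 and 223 CPM on D30 (1.40 ± 0.19, adjusted p = 0.0138, edgeR with Benjamini-Hochberg). In each of the 3 genes both D30 libraries were above both D12 libraries. SKIL, a repressor of SMAD signalling, measured 97.4 and 61 CPM on D12 and 235 and 248 CPM on D30, and VMP1, a membrane protein of autophagy, 105 and 83.9 CPM on D12 and 317 and 283 CPM on D30. Their log2 fold changes were 1.61 ± 0.26 and 1.67 ± 0.21, with adjusted p of 0.0198 and 0.0138 in edgeR with Benjamini-Hochberg. In both, the D30 libraries were closer to each other than the D12 libraries were. In bulk cultures, more cells of a type and more RNA per cell cannot be told apart, nor can fewer cells and less RNA.

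The other 7 of the 12 steady genes with the highest D30 levels include genes known from neural cells. DCX, a microtubule protein of young migrating neurons (ENSG00000077279, GRCh37 chromosome X, 110537007 to 110655657, minus strand), rose from 68.2 and 78.3 to 256 and 322 CPM (log2 1.98 ± 0.35, edgeR, Benjamini-Hochberg adjusted p = 0.0254). RMST, a long noncoding RNA of neural cells, rose from 308 and 221 to 782 and 632 CPM (1.42 ± 0.29, edgeR, Benjamini-Hochberg adjusted p = 0.0361). CCND2, the G1 cyclin D2, went from 175 and 258 to 531 and 680 CPM (1.48 ± 0.29, edgeR, Benjamini-Hochberg adjusted p = 0.0344). All 3 were high in both D30 libraries, which lay within 1.28-fold of each other in each gene. CLSTN2, a synaptic membrane protein of the calsyntenin family, rose from 65.6 and 57.3 to 278 and 231 CPM, and the adhesion protein gene PCDH19, a protocadherin, from 86 and 44.2 to 289 and 194 CPM. ATRNL1 went from 43.3 and 72.7 to 202 and 270 CPM. HYDIN, a protein of the central apparatus of motile cilia, went from 47.9 and 39.8 to 213 and 194 CPM; a near copy, HYDIN2, makes its count uncertain. These 4 genes had log2 fold changes of 2.05, 1.89, 2.03 and 2.21, and their D12 and D30 libraries did not overlap. Of the 12 steady genes with the highest D30 levels, the test called 2 without D12 TMG replicate 1, 1 without D12 TMG replicate 2, 10 without D30 TMG replicate 1 and 8 without D30 TMG replicate 2.

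**Figure D2:**
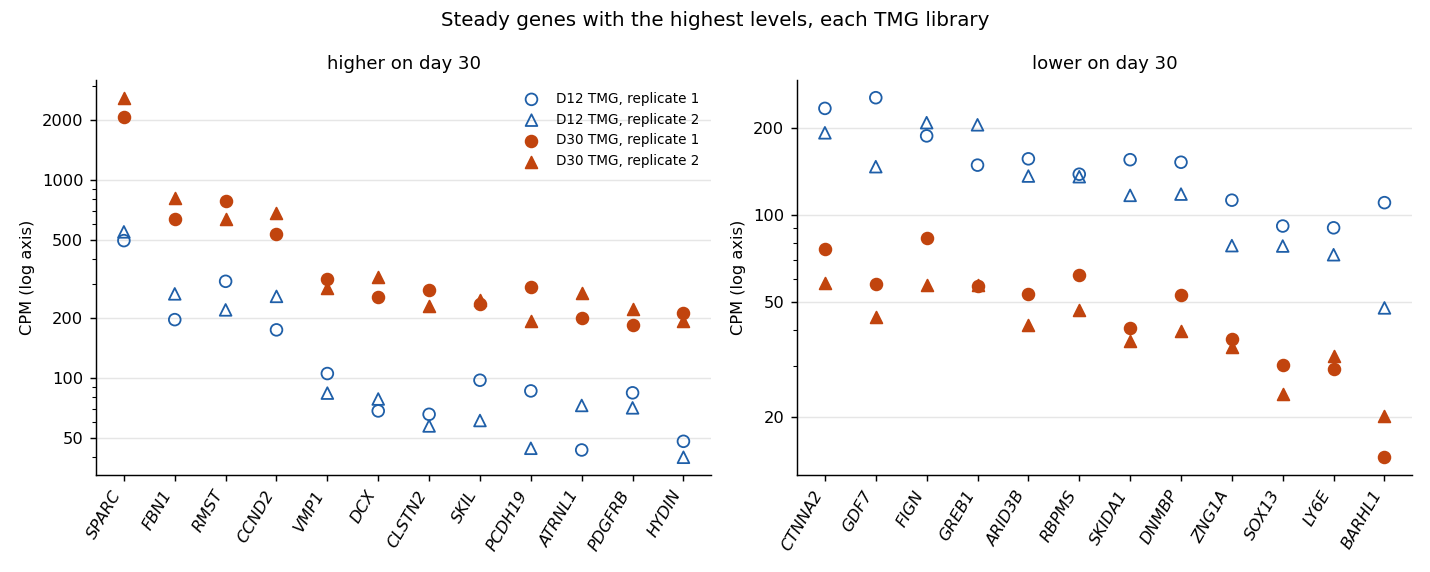
Levels in CPM, on a log axis, of the 12 steady genes higher on D30 (left) and the 12 lower (right) with the highest mean level, in D12 TMG (open) and D30 TMG (filled) libraries. In each gene the filled marks sit close together and clear of the open ones, as for SPARC at 2068 and 2603 CPM on D30.

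Of the 12 steady genes with the highest D12 levels among those that fell, 7 are described first. GDF7, a BMP-family ligand of the roof plate (ENSG00000143869, GRCh37 chromosome 2, 20866904 to 20879003, plus strand), had 255 and 147 CPM on D12 and 57.8 and 44.6 CPM on D30, a log2 fold change of -1.97 ± 0.29 (edgeR, Benjamini-Hochberg adjusted p = 0.0167). BARHL1, a homeobox factor, had 111 and 47.8 CPM on D12 and 14.5 and 20.2 CPM on D30 (-2.19 ± 0.48, edgeR, Benjamini-Hochberg adjusted p = 0.0478). SOX13, a transcription factor of the SoxD group, had 91.7 and 78.2 CPM on D12 and 30.3 and 24.1 CPM on D30 (-1.65 ± 0.24, edgeR, Benjamini-Hochberg adjusted p = 0.0166). All 3 were low in both D30 libraries, and for BARHL1 the D12 libraries themselves were more than 2-fold apart. ARID3B, a DNA-binding protein with an AT-rich interaction domain, fell from 157 and 137 to 53.4 and 41.7 CPM, and GREB1, known as an oestrogen-induced gene, from 149 and 206 to 57 and 57.4 CPM. SKIDA1 fell from 156 and 117 to 40.7 and 36.6 CPM, and RBPMS, an RNA-binding protein, from 139 and 136 to 62.2 and 46.9 CPM. Their log2 fold changes lay between -1.82 (SKIDA1) and -1.33 (RBPMS), with no overlap between the stages.

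The other 5 of the 12 steady genes named for high D12 levels are described here. CTNNA2, the neural alpha-catenin that ties cadherins to actin, went from 234 and 193 to 76.6 and 58.4 CPM. FIGN, a microtubule-severing ATPase, went from 188 and 209 to 83.6 and 57.5 CPM, and DNMBP, an exchange factor for the GTPase CDC42, from 153 and 118 to 53.1 and 39.6 CPM. The lipid-anchored surface protein gene LY6E went from 90.4 and 73 to 29.4 and 32.5 CPM. In these 4 genes each D30 library was below each D12 library, with log2 fold changes of -1.66, -1.49, -1.55 and -1.40. ZNG1A, a zinc chaperone, went from 113 and 78.5 to 37.2 and 35.1 CPM, but it has close family copies that share reads. Of the 12 steady genes with the highest D12 levels, the test called 1 without D12 TMG replicate 1, 2 without D12 TMG replicate 2, 9 without D30 TMG replicate 1 and 8 without D30 TMG replicate 2.

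The next 5 genes were picked after their values were seen, from among those of low p and not in the order of p. CNR1, the cannabinoid receptor of neurons (ENSG00000118432, GRCh37 chromosome 6, 88849583 to 88876066, minus strand), had 10.2 and 7.22 CPM on D12 and 145 and 175 CPM on D30, a log2 fold change of 4.19 ± 0.24 (edgeR, Benjamini-Hochberg adjusted p = 0.00115). TGFB2, a ligand of the TGF-beta family (ENSG00000092969, GRCh37 chromosome 1, 218518678 to 218617961, plus strand), had 9.95 and 11 CPM on D12 and 158 and 159 CPM on D30 (3.92 ± 0.23, edgeR, Benjamini-Hochberg adjusted p = 0.00115). ELN, which encodes elastin, had 3.53 and 1.87 CPM on D12 and 51 and 38.2 CPM on D30 (4.03 ± 0.34, edgeR, Benjamini-Hochberg adjusted p = 0.00583). All 3 were steady and high in both D30 libraries. In the other direction APOB, the lipoprotein component, fell from 15.2 and 18.2 to 1.39 and 1.09 CPM (-3.74 ± 0.35, edgeR, Benjamini-Hochberg adjusted p = 0.00716). GRHL3, a transcription factor of surface epithelia, fell from 20.4 and 16.6 to 1.89 and 1.69 CPM (-3.37 ± 0.30, edgeR, Benjamini-Hochberg adjusted p = 0.00691). Both were steady, with every D30 library near 1 or 2 CPM. With any 1 TMG library left out, edgeR with Benjamini-Hochberg gave CNR1 an adjusted p of 0.00771, 0.0203, 0.000456 and 0.00136, and TGFB2 0.015, 0.0203, 0.000651 and 0.00136, in the order D12 replicates 1 and 2, then D30 replicates 1 and 2. ELN (0.0149, 0.0233, 0.00174 and 0.00355), APOB (0.0222, 0.031, 0.00477 and 0.0137) and GRHL3 (0.0294, 0.025, 0.0046 and 0.0127) stayed under the threshold in the same order of libraries.

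Genes of the motile cilium were frequent among the steady genes. The axoneme of a motile cilium is driven by dynein arms, which assembly factors build in the cytoplasm, and is steadied by radial spokes and further axonemal proteins. The families were picked after the values were seen, by 8 symbol stems (CFAP, DNAH, DNAI, DNAAF, RSPH, DRC, ODAD and TEKT), and so get no test. They hold 93 genes, of which 88 were tested. Of those, 37 were called higher on D30 (42%) and 0 lower by edgeR, against 2.91% of all genes higher and 1.07% lower. Steady and higher were 27, against 1.42% of all genes. At unadjusted p under 0.05, where no share of all genes is given, 63 of the 88 were higher and 0 lower. DESeq2 called 54 higher and 0 lower, beside 1451 higher and 618 lower among all genes. The median log2 change was 1.86, and it was 1.78 between the libraries of replicate 1 and 1.84 between those of replicate 2. Summed over the families, the levels were 770 and 680 CPM on D12 and 2255 and 1842 CPM on D30, with DNAAF9 the most abundant member. Their calls numbered 31 without D30 TMG replicate 1 and 29 without D30 TMG replicate 2; of the 37 genes, 6 were called without D12 TMG replicate 1 and 3 without D12 TMG replicate 2.

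A short motif is found in a minority of the promoters of these genes, and those of 3 of the 6 called members that hold it are printed. They come from RefSeq on GRCh38.p14, 250 bases before to 50 bases after the gene start, 5′ to 3′ on the gene's strand. Capitals mark GTTGCCA, a half-site of the RFX family of ciliary transcription factors, searched on both strands, so it also reads TGGCAAC. CFAP74 lies at chr1:2003737-2004036, minus strand, CFAP126 at chr1:161367827-161368126, minus strand and DNAI3 at chr1:85062077-85062376, plus strand.
CFAP74: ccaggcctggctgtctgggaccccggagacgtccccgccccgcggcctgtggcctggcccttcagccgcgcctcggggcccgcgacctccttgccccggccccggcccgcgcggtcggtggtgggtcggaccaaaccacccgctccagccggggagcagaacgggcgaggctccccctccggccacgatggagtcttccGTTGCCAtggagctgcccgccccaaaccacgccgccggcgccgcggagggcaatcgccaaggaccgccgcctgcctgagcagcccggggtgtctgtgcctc
CFAP126: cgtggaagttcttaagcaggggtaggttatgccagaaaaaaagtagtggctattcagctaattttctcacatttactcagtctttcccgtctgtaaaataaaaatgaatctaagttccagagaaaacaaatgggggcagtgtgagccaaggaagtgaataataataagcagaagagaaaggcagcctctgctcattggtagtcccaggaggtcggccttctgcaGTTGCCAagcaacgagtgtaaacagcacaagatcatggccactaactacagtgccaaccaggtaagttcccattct
DNAI3: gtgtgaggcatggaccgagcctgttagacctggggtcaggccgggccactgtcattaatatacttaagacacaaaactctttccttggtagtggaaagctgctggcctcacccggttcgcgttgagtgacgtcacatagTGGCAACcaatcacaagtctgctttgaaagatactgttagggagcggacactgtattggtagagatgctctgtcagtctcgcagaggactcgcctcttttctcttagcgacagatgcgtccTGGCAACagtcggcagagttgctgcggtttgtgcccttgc
Of the axonemal genes, 71 matched a promoter, and 24 of them hold the half-site (33.8%), against 1360 of 27305 genes (4.98%) and 1433 of all 35116 promoter windows (4.08%). Among members that were not called it is found in 18 of 42 (42.9%), and among those called in 6 of 29 (20.7%). It occurs in 19 of the 227 steady higher genes with a promoter (8.37%) and in 3 of the 74 steady lower ones (4.05%). A match is a run of letters and not a site shown to be bound.

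Heavy chains of the dynein arms were among the steady genes. DNAH9, an outer-arm heavy chain, had 5.78 and 5.67 CPM on D12 and 114 and 113 CPM on D30 (log2 4.31 ± 0.43, edgeR, Benjamini-Hochberg adjusted p = 0.00924). DNAH11 had 6.64 and 4.26 CPM on D12 and 61.8 and 58.4 CPM on D30 (3.46 ± 0.34, edgeR, Benjamini-Hochberg adjusted p = 0.00891), and DNAH7, an inner-arm chain, 13.9 and 13.4 CPM on D12 and 115 and 84.8 CPM on D30. The D30 libraries of DNAH9 and DNAH11 were nearly equal, and the stages were far apart in all 3 genes. DNAAF1, a factor for dynein arm assembly, rose from 1.66 and 1.1 to 43.5 and 42 CPM (4.94 ± 0.58, edgeR, Benjamini-Hochberg adjusted p = 0.0114). CFAP54, of the central apparatus, rose from 8.19 and 7.61 to 55.8 and 55.3 CPM, and RSPH1, a radial spoke protein, from 1.98 and 1.1 to 19.6 and 19.5 CPM. Of the printed promoters' genes, CFAP74 rose from 3.85 and 2.13 to 40.4 and 32 CPM, CFAP126 from 3.64 and 2.45 to 14.3 and 17.3 CPM and DNAI3, a dynein intermediate chain, from 2.19 and 1.1 to 20.8 and 13.4 CPM. CFAP74 and CFAP126 were steady, and the D30 libraries of DNAI3 were just over 1.5-fold apart. CFAP74 lost its call with any 1 TMG library left out. CFAP126 and RSPH1 lost it without either D12 TMG library and without D30 TMG replicate 2, and DNAI3 without either D12 TMG library. Without D12 TMG replicate 1 and D12 TMG replicate 2 in turn, the edgeR Benjamini-Hochberg adjusted p was 0.046 and 0.0553 for DNAH9, 0.0279 and 0.0424 for DNAH11, and 0.0568 and 0.0695 for DNAAF1.

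Regulators of motile ciliogenesis, also picked after seeing values, did not pass the edgeR test. FOXJ1, the master factor of motile cilia, had 35.7 and 14.4 CPM on D12 and 113 and 82.7 CPM on D30 (log2 1.96 ± 0.56, edgeR, Benjamini-Hochberg adjusted p = 0.0961). MCIDAS, which sets the multiciliated fate, had 1.55 and 0.709 CPM on D12 and 5.38 and 6.07 CPM on D30 (edgeR, Benjamini-Hochberg adjusted p = 0.0608), and CCNO, which acts with it, 11.8 and 3.29 CPM on D12 and 49.1 and 35.6 CPM on D30 (0.104). In all 3 genes both D30 values exceeded both D12 values, and the D12 libraries were more than 2-fold apart. DESeq2 called FOXJ1, MCIDAS and CCNO higher (Benjamini-Hochberg adjusted p = 0.00262, 0.00574 and 0.00186). RFX3, a member of the RFX family, had 292 and 220 CPM on D12 and 372 and 200 CPM on D30, with overlapping stages. GMNC, picked in the same way, had 3.91 and 4.255 CPM on D12 and 11.95 and 21.5 CPM on D30. RFX2 had 17.2 and 16 CPM on D12 and 32.5 and 25.6 CPM on D30. Neither passed in edgeR (Benjamini-Hochberg adjusted p = 0.0649 and 0.198). DESeq2 called GMNC higher (Benjamini-Hochberg adjusted p = 0.00255). Its edgeR log2 change was 2.43 without D30 TMG replicate 1, which leaves replicate 2 alone for D30, and 1.56 without D30 TMG replicate 2. Intraflagellar transport serves all cilia, motile or not. Of the 15 IFT genes tested edgeR called 0 in either direction (median log2 0.42), beside 2.91% of all genes higher and 1.07% lower. At unadjusted p under 0.05 4 were higher and 0 lower, and DESeq2 called 1 higher. Among the 8 BBS genes edgeR called 1, BBS5, higher (12.5%).

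The neuronal markers STMN2 and CNTN2 did not pass the test over this interval. STMN2, a tubulin-binding protein of growing axons, had 28.4 and 31 CPM on D12 and 34 and 68.1 CPM on D30 (log2 0.78 ± 0.33, edgeR, Benjamini-Hochberg adjusted p = 0.23). CNTN2, an axonal adhesion molecule, had 65.8 and 69.4 CPM on D12 and 56.6 and 74 CPM on D30 (-0.05 ± 0.30, edgeR, Benjamini-Hochberg adjusted p = 0.951). STMN2 was highest in D30 replicate 2. Its log2 change was 1.23 without D30 TMG replicate 1, which leaves replicate 2 alone for D30, and 0.20 without D30 TMG replicate 2. CNTN2 was not called with any TMG library left out, and the stages of CNTN2 overlapped. The neuronal tubulin TUBB3 had 90.8 and 179 CPM on D12 and 119 and 197 CPM on D30, also overlapping. ELAVL3, a neuronal RNA-binding protein, had 8.13 and 12.6 CPM on D12 and 13 and 32.9 CPM on D30, and SNAP25, a synaptic SNARE protein, 2.78 and 3.8 CPM on D12 and 7.57 and 9.65 CPM on D30; neither passed in edgeR, while DESeq2 called SNAP25 higher (Benjamini-Hochberg adjusted p = 0.0337). The log2 change of ELAVL3 was 1.70 without D30 TMG replicate 1 and 0.34 without D30 TMG replicate 2. Of the 6 neuronal markers edgeR called only DCX on the 8 libraries (16.7%, beside 2.91% of all genes called higher). Their summed level was 264 and 375 CPM on D12 and 486 and 704 CPM on D30. For DCX the edgeR Benjamini-Hochberg adjusted p was 0.12 and 0.109 without D12 TMG replicates 1 and 2, and 0.021 and 0.0597 without D30 TMG replicates 1 and 2.

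Synaptic and axonal lists had positive median changes between the libraries of either replicate number. Of 29 genes of vesicle release, 6 were called higher and 0 lower by edgeR (14 higher and 0 lower by DESeq2, beside 2.91% of all genes higher by edgeR), 4 of them steady: SYT11, UNC13A, RAB3A and SNAP91. SYT11, a synaptotagmin, rose from 18.5 and 17.5 to 48.1 and 47.1 CPM (log2 1.40 ± 0.21, edgeR, Benjamini-Hochberg adjusted p = 0.0176). UNC13A, which primes vesicles, rose from 6.85 and 5.16 to 22.1 and 25.7 CPM (1.99 ± 0.29, edgeR, Benjamini-Hochberg adjusted p = 0.0166). Both genes were alike in the D30 libraries. The list's median was 0.86, 0.72 between the replicate 1 libraries and 1.00 between the replicate 2 libraries, beside -0.02 for all genes. Axon guidance and adhesion had 5 of 36 higher by edgeR, 0 lower (10 higher and 0 lower by DESeq2, beside 2.91% of all genes higher by edgeR) and 3 steady: CNTN3, the netrin receptor DCC and the ephrin receptor EPHA3. DCC rose from 12.4 and 21.7 to 73.4 and 80.8 CPM (2.18 ± 0.35, edgeR, Benjamini-Hochberg adjusted p = 0.0206), with both D30 libraries high. Of the 6 called vesicle genes the test still called 0 without D12 TMG replicate 1, 0 without D12 TMG replicate 2, 5 without D30 TMG replicate 1 and 4 without D30 TMG replicate 2. Of the 5 called axon genes it still called 0 without D12 TMG replicate 1, 0 without D12 TMG replicate 2, 5 without D30 TMG replicate 1 and 2 without D30 TMG replicate 2.

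Channel genes that rose did so further in replicate 2, with some exceptions. Of 37 voltage-gated channel genes 7 were higher and 0 lower by edgeR (16 higher and 0 lower by DESeq2, beside 2.91% of all genes higher by edgeR), with a median of 1.15 that was 0.64 for replicate 1 and 1.30 for replicate 2. The sodium channel subunits SCN9A and SCN3B were the steady ones. SCN9A rose from 1.18 and 1.81 to 20 and 23.7 CPM (log2 3.87 ± 0.72, edgeR, Benjamini-Hochberg adjusted p = 0.0296), and SCN3B from 15 and 10.7 to 33.4 and 33.8 CPM (1.39 ± 0.24, edgeR, Benjamini-Hochberg adjusted p = 0.0249). The potassium channel KCNQ3 rose from 4.33 and 4.06 to 15.1 and 31.3 CPM and the calcium channel CACNA1C from 30.2 and 28.4 to 65.3 and 252 CPM, both highest in D30 replicate 2. The list had 17 genes called higher without D30 TMG replicate 1 and 3 without D30 TMG replicate 2; of the 7 named by the full test, 0 were called without either D12 TMG library. Among granins and peptide-processing genes 4 of 17 were higher by edgeR (5 higher and 2 lower by DESeq2, beside 2.91% of all genes higher by edgeR, median 1.00), and PCSK1N, an inhibitor of prohormone cleavage, was steady at 3.32 and 3.22 CPM on D12 and 36.3 and 47.7 CPM on D30. That list had 2 called higher without D30 TMG replicate 2 and, of its 4, 0 without either D12 TMG library.

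The other neuronal lists had between 1 and 3 edgeR calls each. The neuronal cytoskeleton had 3 of 29 higher (DCX, MAPT and KIF5A), neuronal RNA-binding proteins 1 of 16 (CELF4), transmitter receptors 2 of 33 (GRIN2D and GABRA2), and transmitter enzymes and transporters 1 of 14 (SLC17A8), with 0 lower in each. DESeq2 called 7, 2, 7 and 5 higher and 0 lower. The edgeR shares called higher were 10.3%, 6.25%, 6.06% and 7.14%, beside 2.91% of all genes tested. Their medians were 0.50, 0.51, 0.56 and 0.89. MAPT, the microtubule protein tau, rose from 13.1 and 9.09 to 35.8 and 75.1 CPM and SLC17A8, a vesicular glutamate transporter, from 0.642 and 0.451 to 8.16 and 13.1 CPM, both highest in D30 replicate 2. None of the 7 genes was called without D12 TMG replicate 1 or without D12 TMG replicate 2. Without D30 TMG replicate 1 GRIN2D and GABRA2 lost the call, and without D30 TMG replicate 2 they and DCX and KIF5A did.

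**Figure D3:**
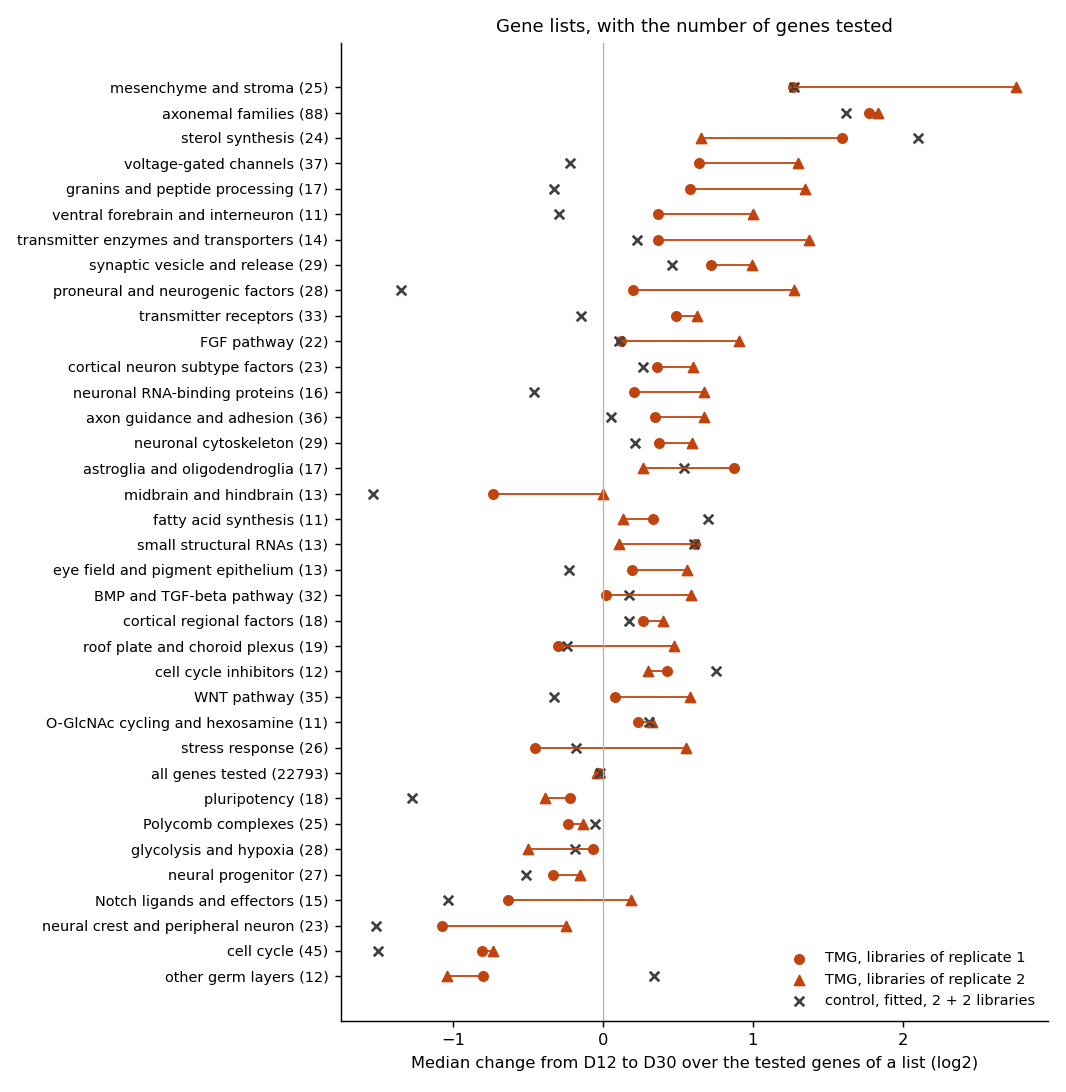
Median log2 change from D12 to D30 over the tested genes of each list (number in brackets), between the TMG libraries of replicate 1 (circles) and replicate 2 (triangles) and as fitted in control (crosses). The mesenchyme list sits at 1.27 and 2.76 in the TMG libraries, the axonemal families at 1.78 and 1.84.

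None of the 5 progenitor markers passed the test. PAX6, the factor of forebrain progenitors, had 568 and 315 CPM on D12 and 457 and 259 CPM on D30 (log2 -0.30 ± 0.35, edgeR, Benjamini-Hochberg adjusted p = 0.688), and SOX2 had 83.5 and 64.1 CPM on D12 and 71 and 39.9 CPM on D30 (-0.41 ± 0.29, edgeR, Benjamini-Hochberg adjusted p = 0.475). Both overlapped between stages. NES, an intermediate filament of progenitors, had 379 and 296 CPM on D12 and 207 and 260 CPM on D30 and did not pass. HES5, a Notch target, ranged from 2.32 to 33 CPM on D12 alone, and FABP7 had 8.29 and 6.64 CPM on D12 and 6.57 and 12.9 CPM on D30; both overlapped. In the progenitor list of 27 genes, edgeR called VIM and TNC higher and LIN28A and LIN28B lower (2 higher and 4 lower by DESeq2, beside 2.91% of all genes higher and 1.07% lower by edgeR, median -0.30), and 0 of the 4 were called without either D12 TMG library. VIM, an intermediate filament shared by progenitors and mesenchyme, rose from 708 and 879 to 1741 and 3073 CPM, and was not called without D30 TMG replicate 2. Of the 15 Notch genes edgeR called 0 in either direction, with 0 higher and 2 lower at unadjusted p under 0.05 and 1 lower by DESeq2. Their median was -0.37, with opposite signs between the libraries of replicate 1 (-0.63) and of replicate 2 (0.19).

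Cell cycle genes had negative median changes between the libraries of either replicate number, with 1 edgeR call. Of 45 genes 1 was called higher, CCND2 (2.22%), and 0 lower by edgeR, beside 2.91% of all genes higher and 1.07% lower. At unadjusted p under 0.05, where no share of all genes is given, 2 were higher and 22 lower. DESeq2 called 1 higher and 8 lower, beside 1451 higher and 618 lower among all genes. The median was -0.81 (-0.80 for replicate 1 and -0.73 for replicate 2). MKI67, a marker of dividing cells, had 200 and 377 CPM on D12 and 79.8 and 218 CPM on D30 (log2 -0.96 ± 0.46, edgeR, Benjamini-Hochberg adjusted p = 0.289). TOP2A, the topoisomerase of dividing cells, had 245 and 327 CPM on D12 and 146 and 245 CPM on D30 and CDK1, the mitotic kinase, 33.2 and 48 CPM on D12 and 35.4 and 42.4 CPM on D30. In each of these genes the stages overlapped, and replicate 2 was the higher library at both stages. The list summed to 2721 and 4152 CPM on D12 and 2148 and 3256 CPM on D30. CCND2 was not called without D12 TMG replicate 1, D12 TMG replicate 2 or D30 TMG replicate 2. Of 12 cell cycle inhibitors edgeR called 0, with 4 higher and 0 lower at unadjusted p under 0.05 and 2 higher by DESeq2.

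Genes of the pluripotent state and of early embryonic cells changed in both directions. LIN28A, an RNA-binding protein that blocks let-7 maturation (ENSG00000131914, GRCh37 chromosome 1, 26737308 to 26756219, plus strand), had 403 and 557 CPM on D12 and 27.8 and 6.27 CPM on D30 (log2 -4.82 ± 0.67, edgeR, Benjamini-Hochberg adjusted p = 0.0162). It was low in both D30 libraries, 4.36-fold apart. DPPA4 fell from 84.7 and 101 to 23.9 and 11.9 CPM, ZFP42 from 8.99 and 8.32 to 1.1 and 0.597 CPM and SALL4 from 154 and 116 to 39.5 and 13 CPM; each was lower in D30 replicate 2 than in replicate 1. TDGF1, a Nodal co-receptor, had 2 counts and 0 counts on D12 and was called higher, at 4.88 and 1.29 CPM on D30. POU5F1, the stem cell factor OCT4, went the other way to the genes that fell, with 0.482 and 0.387 CPM on D12 and 9.36 and 5.77 CPM on D30 (4.09 ± 0.55, edgeR, Benjamini-Hochberg adjusted p = 0.0138). Both D30 libraries were above both D12 libraries, at a level of under 10 CPM, and POU5F1 has pseudogenes that can share its reads. NANOG, with pseudogenes too, had 0.321 and 0.774 CPM on D12 and 1.1 and 1.29 CPM on D30 and did not pass. Of 18 genes tested 2 were higher and 4 lower by edgeR (2 higher and 6 lower by DESeq2, beside 2.91% of all genes higher and 1.07% lower by edgeR, median -0.03). None of the 6 was called without D12 TMG replicate 1 or without D12 TMG replicate 2, and TDGF1 was not called without D30 TMG replicate 1.

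A few factors of neuronal identity were called higher by edgeR, and 2 were called lower. TBR1, a T-box factor of deep-layer cortical neurons, had 0.642 and 0.451 CPM on D12 and 11.8 and 31.7 CPM on D30 (edgeR, Benjamini-Hochberg adjusted p = 0.0138), and EOMES, of intermediate progenitors, 0.375 and 0.387 CPM on D12 and 2.79 and 6.07 CPM on D30 (edgeR, Benjamini-Hochberg adjusted p = 0.0335). INSM2, a zinc-finger factor of neuroendocrine cells, was steady at 0.589 and 0.451 CPM on D12 and 8.16 and 8.95 CPM on D30. All 3 were high in both D30 libraries, TBR1 and EOMES more so in replicate 2. NHLH2, a neuronal basic helix-loop-helix factor, was steady and fell from 7.81 and 6.32 to 1.99 and 1.89 CPM. In the proneural list, 28 genes, 3 were higher and 1 lower by edgeR (5 higher and 1 lower by DESeq2, beside 2.91% of all genes higher and 1.07% lower by edgeR), with medians of 0.20 for replicate 1 and 1.27 for replicate 2. None of these 4 was called without D12 TMG replicate 1 or D12 TMG replicate 2, NHLH2 was not called without either D30 TMG library, and EOMES was not without D30 TMG replicate 2. Factors of cortical neuron subtypes had 3 of 23 higher, TBR1, BCL11B and POU3F3, and TLE4 lower by edgeR (9 higher and 2 lower by DESeq2, beside 2.91% of all genes higher and 1.07% lower by edgeR). POU3F3, an upper-layer factor, was steady at 7.17 and 3.03 CPM on D12 and 27 and 31.1 CPM on D30, whereas BCL11B had 2.84 and 2.45 CPM on D12 and 11.5 and 83.3 CPM on D30. Of these 4 genes 1 without D12 TMG replicate 1, 0 without D12 TMG replicate 2, 3 without D30 TMG replicate 1 and 2 without D30 TMG replicate 2 were called.

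In edgeR the regional lists of the brain held 1 call or none in either direction, beside 2.91% of all genes called higher and 1.07% lower. DESeq2 called 1 higher and 4 lower in the cortical list, 0 higher and 2 lower in the midbrain and hindbrain list and 3 higher and 1 lower in the eye list. SP8, of 18 cortical regional factors, fell from 18.8 and 7.22 to 3.39 and 2.09 CPM. PAX7, of 13 midbrain and hindbrain genes and also of the neural crest list, fell from 29.9 and 32.3 to 10.7 and 4.48 CPM. RPE65, an enzyme of pigment epithelium, rose from 0.161 and 0.258 to 3.68 and 7.76 CPM, 1 of 13 eye genes. In that tissue's marker set the sums were 188 and 427 CPM on D12 and 174 and 71.4 CPM on D30, with PMEL, at 175 and 361 CPM on D12 and 134 and 33.7 CPM on D30, the most abundant. SP8 kept its call without D12 TMG replicate 2 and lost it without each of the other TMG libraries. PAX7 and RPE65 lost it without either D12 TMG library, and PAX7 without D30 TMG replicate 2 too. Of 11 ventral forebrain and interneuron genes edgeR called 0 in either direction, with 4 higher and 0 lower at unadjusted p under 0.05 and 1 higher by DESeq2.

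The mesenchyme list had positive median changes between the libraries of either replicate number, the larger in replicate 2. Of the 25 genes of this list 9 were higher by edgeR, 0 lower (16 higher and 0 lower by DESeq2) and 3 steady, beside 2.91% of all genes higher and 1.42% steady and higher (SPARC, FBN1 and PDGFRB), and the median was 2.35, made of 1.27 for replicate 1 and 2.76 for replicate 2. The list summed to 5145 and 5124 CPM on D12 and 15140 and 48000 CPM on D30, with FN1, fibronectin, the most abundant gene; the control sums were 3126 and 4466 CPM on D12 and 10770 and 13640 CPM on D30. COL1A1, the collagen I alpha-1 chain, had 359 and 537 CPM on D12 and 2534 and 10320 CPM on D30 (log2 3.84 ± 0.66, edgeR, Benjamini-Hochberg adjusted p = 0.0254). LOX, which cross-links collagen and elastin, had 3.75 and 3.87 CPM on D12 and 95.8 and 330 CPM on D30 (5.80 ± 0.59, edgeR, Benjamini-Hochberg adjusted p = 0.0101). Both were high on D30, and highest in replicate 2. COL1A2 at 779 and 1220 CPM on D12 and 1947 and 8247 CPM on D30, COL3A1 at 36.9 and 133 CPM on D12 and 1090 and 11270 CPM on D30 and LUM at 5.99 and 5.22 CPM on D12 and 22.9 and 490 CPM on D30 did not pass in edgeR, although no stage overlapped. DESeq2 called all 3 higher (Benjamini-Hochberg adjusted p = 0.000495, 0.000162 and 0.000327). Their edgeR log2 changes were 3.075, 7.08 and 6.48 without D30 TMG replicate 1, which leaves replicate 2 alone for D30. Without D30 TMG replicate 2 they were 0.97, 3.69 and 2.04. The 5 defining markers (COL1A1, COL1A2, COL3A1, LUM and DCN) summed to 1180 and 1895 CPM on D12 and 5618 and 30720 CPM on D30, with none at 0 in the D30 libraries. The list had 16 genes called higher without D30 TMG replicate 1 and 6 without D30 TMG replicate 2; of the 9, 0 were called without D12 TMG replicate 1 and 0 without D12 TMG replicate 2. Their part in the other differences between the D30 TMG libraries was not tested.

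Of the 8 genes called higher and named for the largest gap between the D30 libraries, all were highest in replicate 2, and several encode matrix proteins. THBS1, thrombospondin-1, had 113 and 91.3 CPM on D12 and 343 and 2539 CPM on D30 (edgeR, Benjamini-Hochberg adjusted p = 0.044). FBLN5, an elastic fibre protein, had 3.0 and 3.16 CPM on D12 and 27.5 and 254 CPM on D30 (edgeR, Benjamini-Hochberg adjusted p = 0.0299), and DCN, the small proteoglycan decorin, 0.0535 and 0.322 CPM on D12 and 23.5 and 401 CPM on D30 (edgeR, Benjamini-Hochberg adjusted p = 0.0325). In all 3 both D30 libraries were above D12, and replicate 2 was 7.4-fold, 9.22-fold and 17-fold above replicate 1. MFAP4, a microfibril-associated protein, had 2.78 and 2.13 CPM on D12 and 13.3 and 135 CPM on D30, COL8A2, a network collagen, 1.18 and 0.774 CPM on D12 and 14.2 and 117 CPM on D30, and FNDC1, 0.161 and 0.387 CPM on D12 and 1.89 and 22 CPM on D30. NFIX, a nuclear factor I transcription factor, had 0.482 and 0.129 CPM on D12 and 7.37 and 141 CPM on D30. These 4 showed the same order of libraries. PENK, the precursor of enkephalin peptides, had 1 read count in D12 replicate 2 and 2 in replicate 1, and 33.7 and 2293 CPM on D30. The D30 to D12 ratio of its pooled counts was 13300, with a 95% counting interval of 4540 to 64300 that leaves out the spread between cultures. Of the D30 counts 338 lay in replicate 1 and 23049 in replicate 2, so the ratio rests on replicate 2. The fitted log2 change of PENK was 13.57 on the 8 libraries and 8.47 without D30 TMG replicate 2. Of the 8 genes, the test called 0 without D12 TMG replicate 1, 0 without D12 TMG replicate 2, 8 without D30 TMG replicate 1 and 5 without D30 TMG replicate 2.

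**Figure D4:**
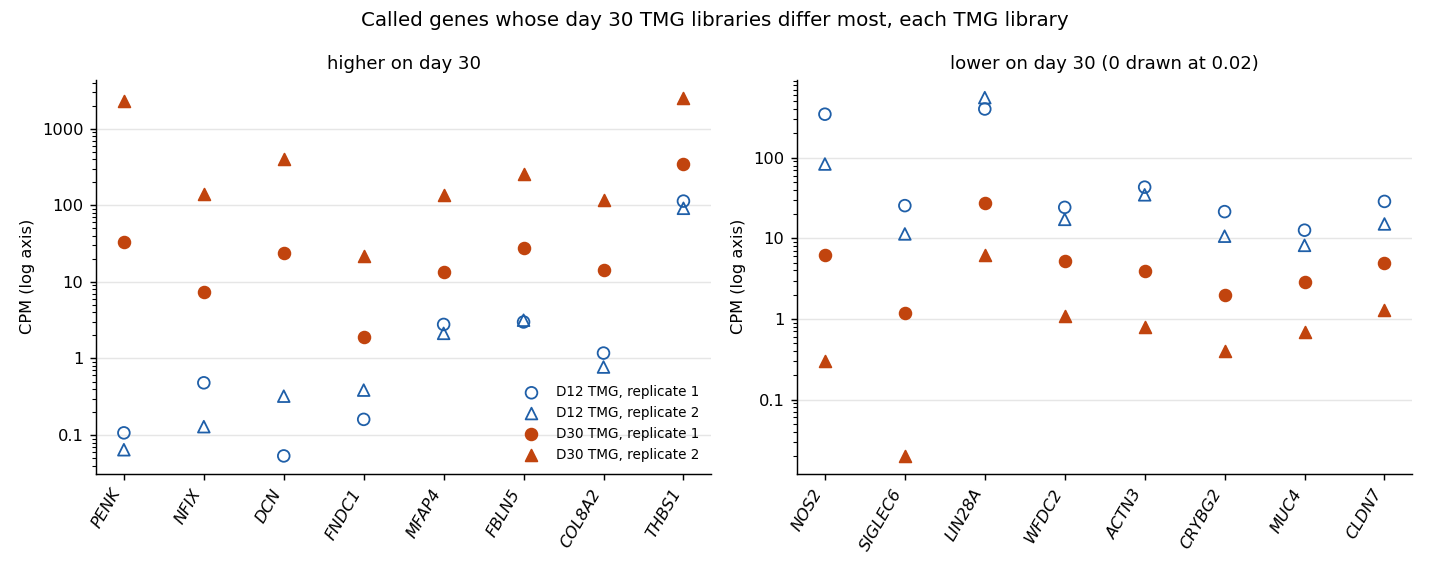
Levels in CPM, on a log axis, of the called genes with the largest difference between the D30 TMG libraries, 8 higher on D30 (left) and 8 lower (right); a value of 0 is drawn at 0.02. Replicate 2 (triangles) lies beyond replicate 1 (circles) on D30 in each gene, at 2293 against 33.7 CPM for PENK and 0.298 against 6.17 CPM for NOS2.

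Of the genes that fell most unevenly, some are known from epithelia. CLDN7, a tight-junction claudin, fell from 28.7 and 15.1 to 4.88 and 1.29 CPM, MUC4, a membrane mucin, from 12.6 and 8.19 to 2.89 and 0.696 CPM, and WFDC2, a secreted epithelial protein, from 24.2 and 17.2 to 5.18 and 1.09 CPM. NOS2, the inducible nitric oxide synthase, fell from 347 and 83.6 to 6.17 and 0.298 CPM (edgeR, Benjamini-Hochberg adjusted p = 0.0497). In all 4 genes the D30 libraries were low, replicate 2 the lower. SIGLEC6, a sialic acid-binding lectin, fell from 25.5 and 11.4 to 1.2 and 0 CPM, ACTN3, an alpha-actinin, from 43.2 and 34.7 to 3.88 and 0.796 CPM, and CRYBG2 from 21.5 and 10.6 to 1.99 and 0.398 CPM. With LIN28A, these make up the 8 genes named for the largest gap, of which the test called 0 without D12 TMG replicate 1, 0 without D12 TMG replicate 2, 8 without D30 TMG replicate 1 and 4 without D30 TMG replicate 2. The epithelial keratins KRT8 and KRT18 and the cadherin CDH1 fell with them, KRT8 from 812 and 462 to 171 and 100 CPM (log2 -2.23 ± 0.36, edgeR, Benjamini-Hochberg adjusted p = 0.0205) and CDH1 from 124 and 73.1 to 15.5 and 6.47 CPM (-3.16 ± 0.50, edgeR, Benjamini-Hochberg adjusted p = 0.020). These sit in a list of 12 tested genes of other germ layers with 4 lower (MYH6 too) and 1 higher by edgeR, KRT5, which had no count on D12 and 2.59 and 0.995 CPM on D30. DESeq2 called 0 higher and 4 lower in this list, and of all genes edgeR called 2.91% higher and 1.07% lower. Of those 5, 0 without D12 TMG replicate 1, 2 without D12 TMG replicate 2, 3 without D30 TMG replicate 1 and 3 without D30 TMG replicate 2 were called. ESRP2, an epithelial splicing factor, and CGN, the tight-junction protein cingulin, both picked after seeing values, were steady and fell from 16.9 and 11.8 to 5.58 and 3.98 CPM and 16.8 and 14.3 to 3.68 and 5.07 CPM. Without D12 replicates 1 and 2 and D30 replicates 1 and 2 of TMG in turn, edgeR with Benjamini-Hochberg gave ESRP2 an adjusted p of 0.183, 0.101, 0.0399 and 0.112, and CGN 0.123, 0.105, 0.0799 and 0.0592. ESRP2 thus kept its call only without D30 TMG replicate 1, and CGN lost it without any 1 of the 4.

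Some neural crest genes fell. Of 23 genes edgeR called 5 lower (SOX10, ERBB3, TFAP2A, TFAP2C and PAX7) and 0 higher, with 0 steady, and DESeq2 called 3 higher and 10 lower. Of all genes edgeR called 1.07% lower and 2.91% higher. At unadjusted p under 0.05 5 were higher and 11 lower. SOX10, a factor of crest and its glia, had 46 and 192 CPM on D12 and 6.67 and 16.7 CPM on D30 (log2 -3.34 ± 0.69, edgeR, Benjamini-Hochberg adjusted p = 0.041), and TFAP2A, of crest and surface ectoderm, 49.3 and 73.6 CPM on D12 and 6.27 and 9.65 CPM on D30 (-2.95 ± 0.39, edgeR, Benjamini-Hochberg adjusted p = 0.0138). Both were low on D30, and replicate 2 was the higher library at each stage. FOXD3, an early crest factor, had 14.7 and 69.7 CPM on D12 and 0.498 and 4.18 CPM on D30 and did not pass in edgeR (Benjamini-Hochberg adjusted p = 0.0616), while DESeq2 called it lower (Benjamini-Hochberg adjusted p = 0.022). The list summed to 982 and 1902 CPM on D12 and 487 and 709 CPM on D30, with PAX3 the most abundant gene. Of the 5, 3 without D12 TMG replicate 1, 0 without D12 TMG replicate 2, 3 without D30 TMG replicate 1 and 3 without D30 TMG replicate 2 were called.

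Choroid plexus and glial genes moved unevenly. TTR, the transport protein transthyretin made by choroid plexus, had 9.36 and 3.48 CPM on D12 and 145 and 277 CPM on D30 (log2 5.03 ± 0.84, edgeR, Benjamini-Hochberg adjusted p = 0.0242), while CLIC6 had 27.2 and 8.0 CPM on D12 and 36.5 and 36.6 CPM on D30 and FOLR1, a folate receptor, 8.35 and 6.96 CPM on D12 and 4.98 and 5.17 CPM on D30, and neither passed. TTR was high in both D30 libraries. The list of 19 roof plate and choroid plexus genes had TTR, AQP1 and BMP6 higher and GDF7 lower by edgeR (4 higher and 3 lower by DESeq2, beside 2.91% of all genes higher and 1.07% lower by edgeR). Of these 4 genes, 1 without D12 TMG replicate 1, 1 without D12 TMG replicate 2, 4 without D30 TMG replicate 1 and 2 without D30 TMG replicate 2 were called. Of 17 glial genes edgeR called SLC1A2, CD44 and SPARCL1 higher (17.6%, beside 2.91% of all genes) and 0 lower, and DESeq2 called 4 higher and 2 lower. Of the 3, 0 without D12 TMG replicate 1, 0 without D12 TMG replicate 2, 3 without D30 TMG replicate 1 and 1 without D30 TMG replicate 2 were called. The astroglial markers GFAP at 0.321 and 0.451 CPM on D12 and 1.69 and 1.59 CPM on D30 and AQP4 at 1.07 and 1.29 CPM on D12 and 3.09 and 4.18 CPM on D30 did not pass. OLIG2 was at 0 in both D30 libraries, SOX17 at 0 in all 4 TMG libraries, and AFP, MYOD1 and MYOG had at most 0.498, 0.199 and 0.398 CPM in them. These 5 genes were too low to be tested.

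Ligands and modulators of the TGF-beta and BMP pathway, the pathway blocked at neural induction, changed in both directions. The medium that held the blocking inhibitors was replaced after D12, and its part in these changes was not tested. Of 32 genes 7 were higher and 2 lower by edgeR, beside 2.91% and 1.07% of all genes (9 higher and 2 lower by DESeq2). TGFB2 and BAMBI, a decoy receptor, were steady and rose, and GDF7 was steady and fell. BAMBI rose from 30.4 and 31.5 to 94.5 and 97.4 CPM (log2 1.63 ± 0.30, edgeR, Benjamini-Hochberg adjusted p = 0.0274), and INHBA, an activin subunit, from 5.46 and 1.42 to 43.3 and 88.6 CPM (4.24 ± 0.77, edgeR, Benjamini-Hochberg adjusted p = 0.0297). BAMBI was nearly equal in the D30 libraries, whereas INHBA was highest in replicate 2. BMP2 fell from 39.8 and 44.6 to 10.1 and 17.1 CPM. Of the 9, 1 without D12 TMG replicate 1, 2 without D12 TMG replicate 2, 8 without D30 TMG replicate 1 and 3 without D30 TMG replicate 2 were called. In the WNT list edgeR called 2 of 35, WNT5A and DKK2, both higher (5.71%, beside 2.91% of all genes), and DESeq2 called 10 higher and 3 lower. WNT5A was steady at 40 and 36.2 CPM on D12 and 108 and 92 CPM on D30, and DKK2, a WNT antagonist, had 0.642 and 2.06 CPM on D12 and 20.7 and 151 CPM on D30. In the FGF list edgeR called 3 of 22, FGF13, FGF18 and SPRY1, all higher (13.6%, beside 2.91% of all genes), and DESeq2 called 4 higher and 0 lower. FGF18 was steady at 1.66 and 1.29 CPM on D12 and 5.58 and 7.36 CPM on D30. Without D12 TMG replicate 1 or D12 TMG replicate 2 none of the 5 genes named by edgeR was called, and without D30 TMG replicate 2 the 3 FGF genes were not, with FGF13 not called without D30 TMG replicate 1 either.

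Sterol synthesis genes had the larger change in replicate 1. Of 24 genes 5 were higher (HMGCS1, IDI1, INSIG1, SQLE and DHCR7) and 0 lower by edgeR (13 higher and 0 lower by DESeq2, beside 2.91% of all genes higher by edgeR), and the median of 1.18 was 1.60 for replicate 1 and 0.65 for replicate 2. SQLE, squalene epoxidase, was steady at 37.8 and 57.3 CPM on D12 and 138 and 118 CPM on D30 (log2 1.43 ± 0.31, edgeR, Benjamini-Hochberg adjusted p = 0.0448), as was DHCR7, the last enzyme of cholesterol synthesis, at 15.3 and 23.9 CPM on D12 and 56.1 and 49.6 CPM on D30 (1.43 ± 0.31, edgeR, Benjamini-Hochberg adjusted p = 0.0458). Both were high in the D30 libraries. HMGCS1, the synthase at the entry of the pathway, rose from 70.8 and 101 to 488 and 218 CPM, highest in D30 replicate 1. The list had 2 called higher without D30 TMG replicate 1, and of its 5 called genes 0 were called without either D12 TMG library. SQLE and DHCR7 were not called without D30 TMG replicate 1 (edgeR, Benjamini-Hochberg adjusted p = 0.0731 and 0.0719) or without D30 TMG replicate 2 (0.0675 and 0.0729), so each lost its call without any 1 of the 4 TMG libraries. The list summed to 959 and 1353 CPM on D12 and 2978 and 2200 CPM on D30; the control sums were 890 and 1131 CPM on D12 and 5494 and 3592 CPM on D30.

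**Figure D5:**
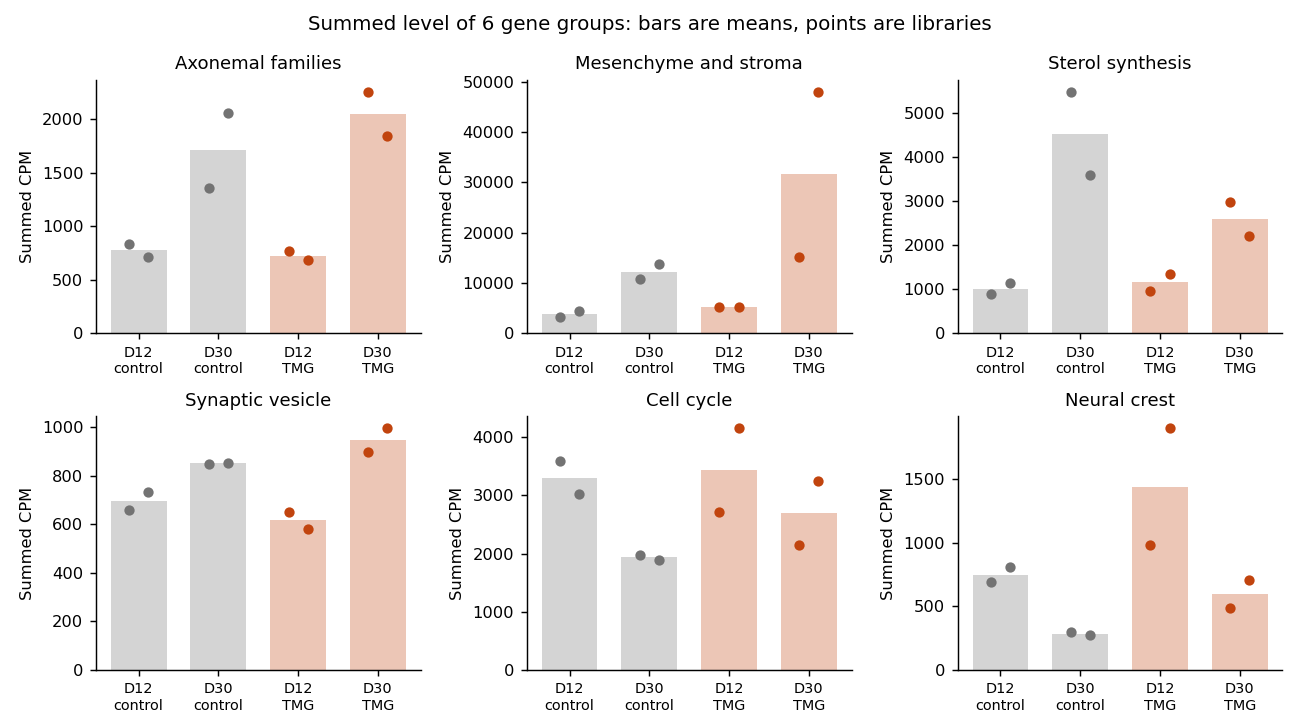
Summed CPM of 6 gene groups on D12 and D30 in control (grey) and TMG (orange); bars are the means of 2 libraries and points the libraries. The axonemal families reach 2255 and 1842 CPM in D30 TMG, while the mesenchyme list differs between its libraries, 15140 against 48000 CPM.

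The enzymes that add and remove O-GlcNAc did not pass the test. OGT, which adds O-GlcNAc, had 654 and 604 CPM on D12 and 613 and 757 CPM on D30, and OGA, the target of TMG, 436 and 353 CPM on D12 and 514 and 413 CPM on D30. Both overlapped between the stages, with log2 changes of 0.12 ± 0.19 and 0.23 ± 0.20 (edgeR, Benjamini-Hochberg adjusted p = 0.776 and 0.574). Of 11 genes of O-GlcNAc cycling and hexosamine synthesis edgeR called 0, beside 2.91% of all genes higher and 1.07% lower. At unadjusted p under 0.05 3 were higher and 1 lower, and DESeq2 called 1 higher and 1 lower. Of 25 Polycomb genes edgeR called 0, with 1 higher and 3 lower at unadjusted p under 0.05, and DESeq2 called 1 lower.

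The last question was whether the interval looks different under TMG and in control. The contrasts share no library, but both come from 1 fit with a shared spread, so their calls are not independent. In control 1038 genes were called higher on D30 (4.55%) and 690 lower (3.03%) by edgeR. Of the 908 genes called in TMG, 880 had the same sign in control, and 522 were called in control in the same direction, which is 57.5% of the TMG calls and 30.2% of the control calls. The steady genes had median control changes of 1.79 (higher, 317 of 324 of the same sign) and -1.64 (lower, 106 of 110). No share of equal signs over all genes tested is given beside these counts. Across all genes tested, called or not, the TMG and control changes correlated at r = 0.626. The interaction, which tests the difference between the arms, was called by edgeR in 0 genes (0%), with 1186 genes at an unadjusted p under 0.05, and by DESeq2 in 40, of which 31 were higher and 9 lower. Without D30 TMG replicate 1 edgeR called 53. No gene is therefore given as particular to TMG by the edgeR test.

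Some of the genes with the lowest interaction p, picked for that value, are given with both arms. CNR1 had 6.74 and 6.57 CPM on D12 and 20.1 and 19.1 CPM on D30 in control, a log2 change of 1.56 beside 4.19 in TMG (edgeR, Benjamini-Hochberg adjusted p = 0.611 for the interaction). POU5F1 had 0.558 and 0.793 CPM on D12 and 0.099 and 0.418 CPM on D30 in control (edgeR, Benjamini-Hochberg adjusted p = 0.738 for the interaction). ABCA4, a retinal lipid transporter, fell in TMG from 24.1 and 19.2 to 4.88 and 4.48 CPM and was steady, with 5.48 and 6.51 CPM on D12 and 6.24 and 7.06 CPM on D30 in control. EDNRB, the endothelin receptor of crest cells, fell in TMG from 9.15 and 22.8 to 1.59 and 1.69 CPM, with 4.67 and 6.74 CPM on D12 and 8.51 and 7.42 CPM on D30 in control. The control stages of ABCA4 overlapped. The interaction of ABCA4 and of EDNRB did not pass in edgeR (Benjamini-Hochberg adjusted p = 0.738 and 0.738). DESeq2 called the interaction in all 4 genes (Benjamini-Hochberg adjusted p = 3.35e-07 for CNR1, 0.00179 for POU5F1, 0.00179 for ABCA4 and 0.00116 for EDNRB). CNTN2 had 35.2 and 65.7 CPM on D12 and 12.8 and 16.6 CPM on D30 in control, where edgeR with Benjamini-Hochberg called it lower (adjusted p = 0.0216); its interaction did not pass (adjusted p = 0.94). Medians of lists set side by side were 1.15 in TMG and -0.22 in control for voltage-gated channels, 0.77 and -1.35 for proneural factors, -0.81 and -1.50 for the cell cycle, 1.18 and 2.10 for sterol synthesis, and 1.86 and 1.62 for the axonemal families. In TMG, EDNRB was not called without D12 TMG replicate 2 or without D30 TMG replicate 2 (edgeR, Benjamini-Hochberg adjusted p = 0.0614 and 0.0505), and ABCA4 was not called without D12 TMG replicate 1 or without D12 TMG replicate 2 (edgeR, Benjamini-Hochberg adjusted p = 0.0568 and 0.0544).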

How the data were processed

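RNA-seq counts of the 4 TMG libraries on D12 and D30 were tested together with the 4 control libraries of the same stages. The authors aligned reads with Bowtie2 to hg19 and estimated expected counts per Ensembl GRCh37.p13 gene with RSEM 1.2.12, deposited as whole numbers without normalization; the strand of counting is not stated, so overlapping antisense genes cannot be told apart. Genes passing filterByExpr (minimum count 10, minimum total 15) were fitted in edgeR 4.0.16 (R 4.3.3; TMM, robust quasi-likelihood, 1 mean per group, 4 residual degrees of freedom), with two-sided tests and Benjamini-Hochberg adjustment over all genes tested. The value after ± is the size of the log2 fold change divided by the square root of the F statistic of its test. It is an approximate SE that draws on the spread of all 8 libraries. Log2 CPM used a prior count of 2. DESeq2 1.42.0 and the settings in the closing section were alternatives. Replicate numbers are not stated to pair samples, so no block was used.

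Named genes were the 12 steady genes in each direction with the highest mean CPM, the 8 in each direction with the most different D30 TMG libraries (mean of at least 10 CPM), and members of the lists, more than the planned 6 in some of them. The 35 lists hold 830 entries, of which 808 matched; the mitochondrial messenger RNA list had 0 of 13 found. The members and lists were chosen with earlier results of these data known. Of 424 steady genes with a symbol, 301 matched a RefSeq promoter. Intervals cover counting error only. 1 gene of low interaction p is not reported here.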

Additional observations from a re-analysis of the deposited data

How the results depend on the processing

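The counts of genes higher and lower on D30 were 681 and 239 with RLE size factors and 646 and 231 with a 2-fold minimum. They were 1451 and 618 by DESeq2, 2110 and 1222 with no filter on low counts, 94 and 30 with all 16 libraries, and 2 and 0 with the 4 TMG libraries alone. With the replicate number as a block they were 1182 and 605. Leaving out 1 library at a time gave 23 to 1027 higher and 24 to 347 lower. Without both TMG libraries of replicate 2 they were 254 and 140. For these counts, leaving out control libraries or both TMG libraries of a number was chosen after seeing the data, as was DESeq2 for control.

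Steady genes higher and lower numbered 543 and 258 with no filter, 46 and 17 with all 16 libraries, 2 and 0 with the 4 TMG libraries alone, and 133 and 38 when every D30 library had to be 4-fold from every D12 library. They were 416 and 148 with the block, 449 and 142 by DESeq2, 331 and 109 with RLE, and 451 and 160 with D30 libraries within 2-fold. Leaving out 1 D12 TMG library gave 19 to 34 higher and 13 to 16 lower. The interaction count of 0 became 40 by DESeq2, 582 with no filter and 53 at most when 1 library was left out (0 to 53), and it was 0 in edgeR with RLE, with all 16 libraries and with the block. DESeq2 called 3075 genes in control, against 1728. The causes of these shifts were not tested.

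Here the 187 named genes are those picked by rule, the markers and the called list members. Genes picked after their values were seen, such as CNR1, ELN and FOXJ1, or for a low interaction p are left out unless a list holds them. Of the 187, 161 were called. No sign of a called change was reversed under RLE, DESeq2, all 16 libraries, the 4 TMG libraries alone, the block or any TMG library left out. The call was kept in 161 genes with RLE, 160 by DESeq2, 161 with the block, 22 with all 16 libraries and 2 with the 4 TMG libraries alone. It was kept in 15 without D12 TMG replicate 1, 10 without D12 TMG replicate 2, 131 without D30 TMG replicate 1 and 94 without D30 TMG replicate 2. Of the named genes not called, 7 were called by DESeq2, 4 with the block, 0 with RLE, all 16 libraries or the 4 TMG libraries alone, 0 without D12 TMG replicate 1, 1 without D12 TMG replicate 2, 6 without D30 TMG replicate 1 and 1 without D30 TMG replicate 2. A library left alone in its group is assumed to vary like the other groups. Depth limits genes near 0, such as PENK and TDGF1 on D12, whose fold changes depend on the prior count. With 2 libraries in each group, a difference between cultures cannot be told apart from a difference between libraries.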

Other observations

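Some gene groups outside those described held 1 edgeR call or none, beside 2.91% of all genes called higher and 1.07% lower. Of 28 glycolysis and hypoxia genes EGLN3, a prolyl hydroxylase that marks HIF proteins for decay, was called lower by edgeR and was steady, from 69.8 and 51.8 to 23.5 and 18 CPM. It was not called without either D12 TMG library or without D30 TMG replicate 2. The list's median log2 change was -0.20. Of 26 stress response genes edgeR called 0, with 5 higher and 3 lower at unadjusted p under 0.05, and DESeq2 called 2 higher and 1 lower. The median stress change was -0.45 between the libraries of replicate 1 and 0.55 between those of replicate 2. Without D30 TMG replicate 1 the same test called 5 higher and 1 lower.

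Fatty acid synthesis had 0 of 11 genes called by edgeR, beside 2.91% of all genes higher and 1.07% lower. At unadjusted p under 0.05 1 was higher and 0 lower, DESeq2 called 0, and the median was 0.35. Of 13 small structural and abundant noncoding RNAs edgeR called 0, with 3 higher and 1 lower at unadjusted p under 0.05 and 1 higher by DESeq2. Their summed level in TMG was 103100 and 100800 CPM on D12 and 156700 and 111500 CPM on D30, with MALAT1 the most abundant. In control the sums were 85740 and 109300 CPM on D12 and 169100 and 151800 CPM on D30. Among the D30 libraries, TMG replicate 2 thus held the smallest amount of these RNAs.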
